A study of Mus musculus with 2 samples.

Results

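Imprinted genes are expressed mainly from the copy that was inherited from 1 parent, and 10 of them, led by *Meg3*, were followed here in cultured aortic cells. They are *Meg3*, *Rian*, *H19*, *Igf2*, *Dlk1*, *Cdkn1c*, *Peg3*, *Plagl1*, *Grb10* and *Mest*, out of 31053 genes in the count tables. The 10 were chosen by name, with earlier results of these data known. The tables hold 9 of the 10, and *Rian* was not analysed here. The cells were primary vascular smooth muscle cells (VSMCs) from the thoracic aorta of wildtype C57BL6/N mice, profiled by single-cell RNA sequencing (scRNA-seq) on day 5 in culture in full medium. They received no treatment, and there was 1 condition with 2 libraries, biological replicates 1 and 2, each from a preparation of several pooled aortae. Male and female mice were used in the study, and the age and sex of the mice behind these libraries are not given in the sources used here. All values below are given for both libraries, since the libraries and not the cells are the replicates (n = 2).

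Imprinted genes lie in clusters in which DNA methylation, set in the germ line on 1 parental copy, governs which copy of each gene is expressed. Many of them act on growth before birth, and the level of several of them falls in most tissues afterwards. In the *Dlk1*-*Meg3* cluster, *Dlk1* encodes a membrane protein of the Notch ligand type and is expressed from the paternal copy, while the long noncoding RNAs *Meg3*, *Rian* and *Mirg* come from the maternal copy. In the *Igf2*-*H19* cluster, the growth factor gene *Igf2* is paternally and the noncoding RNA *H19* maternally expressed. The UMI counts used here do not tell the 2 parental copies apart, so that only the level of each gene is described and not its imprint.

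All members with a row lie on autosomes. In GRCm38, *Meg3* (ENSMUSG00000021268) lies on chromosome 12 from 109541001 to 109571726 on the plus strand, downstream of *Dlk1* (ENSMUSG00000040856, 109452823 to 109463336, same strand). Further along the same strand, the annotation places *Rian* at 109603940 to 109661716, *Gm26945* within it at 109640341 to 109642351, *B830012L14Rik* at 109695586 to 109702587 and *Mirg* at 109729764 to 109749460. *H19* (ENSMUSG00000000031, 142575529 to 142578143), *Igf2* (ENSMUSG00000048583, 142650766 to 142666816) and *Cdkn1c* (ENSMUSG00000037664, 143458339 to 143461050) lie near each other on chromosome 7, all on the minus strand. *Peg3* (ENSMUSG00000002265, 6703892 to 6730431) lies on the same chromosome and strand, *Grb10* (ENSMUSG00000020176, 11930508 to 12038683) on the minus strand of chromosome 11, *Plagl1* (ENSMUSG00000019817, 13060504 to 13131694) on the plus strand of chromosome 10, and *Mest* (ENSMUSG00000051855, 30723547 to 30748465) on the plus strand of chromosome 6.

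Several of these transcripts carry microRNAs, which the 3' libraries do not measure. Their mature sequences are shown because they are what the host transcripts described below can give rise to, with bases 2 to 8, the seed that pairs with target mRNAs, in capitals (RefSeq, GRCm38). The host is *Meg3* for miR-770 (in an exon), *H19* for miR-675 (in its exon), *Mest* for miR-335 (in an intron), and *Mirg* for the last 4, which stand for the 26 mature sequences of 14 microRNA genes within *Mirg*.
miR-770-5p: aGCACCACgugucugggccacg
miR-770-3p: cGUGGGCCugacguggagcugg
miR-675-5p: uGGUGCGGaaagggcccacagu
miR-675-3p: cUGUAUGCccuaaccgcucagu
miR-335-5p: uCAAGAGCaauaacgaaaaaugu
miR-335-3p: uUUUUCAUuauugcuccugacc
miR-134-5p: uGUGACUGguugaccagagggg
miR-410-3p: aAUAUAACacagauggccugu
miR-453: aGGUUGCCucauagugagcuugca
miR-496a-5p: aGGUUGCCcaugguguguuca
Of those printed, miR-453 and miR-496a-5p share the seed GGUUGCC, and no other 2 share a seed.

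Promoters are shown for *Meg3*, the member with the highest UMI counts, and for *Plagl1*, *Mest* and *Peg3*, which were higher in endothelial cells than in the other cells (below). Each run holds the 250 bases before a RefSeq start site of GRCm38.p6, 5′ to 3′ on the strand of the gene, with CpG dinucleotides, the sites of DNA methylation, in capitals. The positions are chr12:109540746-109540995 (plus), chr10:13090582-13090831 (plus), chr6:30737800-30738049 (plus, the second of the start sites of *Mest*) and chr7:6730420-6730669 (minus).
*Meg3*: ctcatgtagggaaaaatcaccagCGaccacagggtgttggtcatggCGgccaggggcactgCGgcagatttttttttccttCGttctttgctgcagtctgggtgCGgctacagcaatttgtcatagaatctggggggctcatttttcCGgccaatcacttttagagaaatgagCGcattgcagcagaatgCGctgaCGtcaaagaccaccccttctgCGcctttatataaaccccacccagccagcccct
*Plagl1*: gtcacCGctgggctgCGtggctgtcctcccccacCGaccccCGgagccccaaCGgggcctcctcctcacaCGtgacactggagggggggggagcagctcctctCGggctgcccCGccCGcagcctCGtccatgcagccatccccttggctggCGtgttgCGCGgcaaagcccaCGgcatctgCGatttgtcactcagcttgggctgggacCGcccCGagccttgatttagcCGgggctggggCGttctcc
*Mest*: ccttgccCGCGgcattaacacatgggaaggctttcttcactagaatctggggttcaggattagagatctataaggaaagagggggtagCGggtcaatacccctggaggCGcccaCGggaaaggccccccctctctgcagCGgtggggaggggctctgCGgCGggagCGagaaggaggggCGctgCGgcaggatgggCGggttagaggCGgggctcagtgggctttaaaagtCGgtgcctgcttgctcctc
*Peg3*: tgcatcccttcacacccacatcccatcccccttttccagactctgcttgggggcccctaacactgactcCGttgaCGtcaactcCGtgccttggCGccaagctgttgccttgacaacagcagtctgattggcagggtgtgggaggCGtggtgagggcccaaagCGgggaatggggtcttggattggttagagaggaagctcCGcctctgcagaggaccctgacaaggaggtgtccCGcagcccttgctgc
These windows hold 10, 19, 14 and 8 CpGs in this order, where the median of 32851 promoters of this length is 6, and 62.2%, 80.3%, 70.6% and 57.0% of all promoters hold fewer. The letters GGGGCCCC, which read the same on both strands and resemble sites bound by the zinc finger protein PLAGL1, occur once in the *Peg3* window and not in the other 3, and 0.889% of all promoters hold them. A match of letters is a description of the sequence only, and methylation was not measured.

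A barcode was taken as a cell if it held 300 genes or more, 3000 UMIs (unique molecular identifiers, which count captured mRNA molecules) or more, and less than 20% mitochondrial UMIs. The deposited counts summed to 127949633 and 132561822 UMIs in replicates 1 and 2, and 4866 and 6824 cells with a median of 22234.5 and 16310 UMIs were kept, of which 9 barcodes occurred in both libraries. They were divided by marker genes that are no members. Endothelial cells (ECs) held at least 2 UMIs of at least 2 of *Pecam1*, *Cdh5*, *Cldn5* and *Gja4* (102 and 141 cells), cycling cells at least 2 UMIs of at least 3 of 8 genes of cell division (1664 and 1988 cells), and the rest were split by *Myh11*, the myosin of contractile smooth muscle, into *Myh11*-high cells with at least 5 UMIs (297 and 525) and *Myh11*-low cells with at most 1 UMI (2581 and 3896). The labels held against markers outside these rules. *Kdr* and *Tie1* were at 117 and 106 CPM (UMIs of a gene per 1000000 UMIs of the class) in the ECs of replicate 1 and at 115 and 124 in those of replicate 2, and at 0.751 CPM or less in the other 3 classes, while *Acta2* was at 15424 and 16229 CPM in *Myh11*-high cells against 3791 and 2128 in *Myh11*-low cells. The median depth was 14629 and 10250 UMIs in ECs, below that of *Myh11*-high cells (23783 and 18462).

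*Meg3* differed more between the 2 cultures than between the classes of smooth muscle cells. In *Myh11*-low cells it was found at 775 CPM in replicate 1 and at 297 in replicate 2, in *Myh11*-high cells at 786 and 153, in cycling cells at 518 and 154, and in ECs at 253 and 97.1. It was thus higher in replicate 1 in every class, by 2.61-fold in *Myh11*-low cells and ECs, by 3.36-fold in cycling cells and by 5.15-fold in *Myh11*-high cells. A distance between the libraries of this size was rare, and only 0.530 to 1.19% of the genes with at least 10 CPM in a class were as far apart. There is no test for this difference, since each culture gave 1 library. *H19*, the other noncoding member, differed in the same direction, by 2.56-fold in *Myh11*-low cells, 3.24-fold in cycling cells, 3.08-fold in ECs and 26.4-fold in *Myh11*-high cells, where replicate 2 held 11 UMIs in all. *Mirg* was 2.17-fold higher in replicate 1 in *Myh11*-low cells and 4.87-fold in *Myh11*-high cells, and in ECs it had only 6 and 1 UMIs. The protein-coding neighbor of *Meg3*, *Dlk1*, was at 9.95 and 10.5 CPM in *Myh11*-low cells, but higher in replicate 1 in *Myh11*-high cells (9.29 and 3.05) and cycling cells (8.57 and 6.31).

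**Figure D1:**
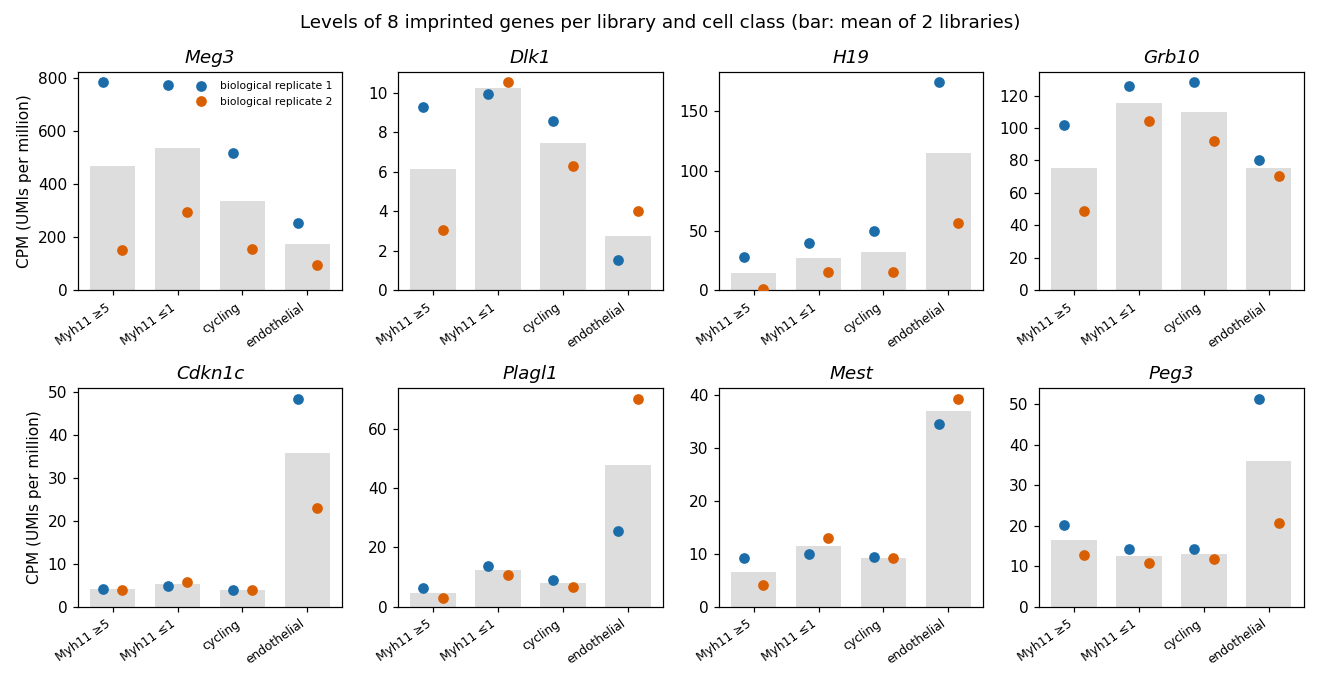
Levels in CPM (y axis, from 0) of 8 members in the 4 cell classes (x axis), with a point for each library and a gray bar for the mean of the 2. *Meg3* and *H19* are higher in replicate 1 in every class, and *Cdkn1c*, *Plagl1*, *Mest* and *Peg3* have their highest points in endothelial cells.

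The 2 cultures also differed in how many cells held a *Meg3* UMI, which depends on depth as well as on level. In replicate 1, 12.2% of the *Myh11*-low cells and 11.8% of the cycling cells held no *Meg3* UMI, against 33.3% and 44.1% in replicate 2. *Myh11*-low cells without a *Meg3* UMI were shallower, with medians of 12885 and 13770 UMIs against 20322 and 14798 in those with it. Of the *Myh11*-high cells, 27.6% and 61.7% held none. The *Meg3* count per cell was spread widely, with a median of 12 UMIs and a maximum of 172 in the *Myh11*-high cells of replicate 1, and a median of 0 and a maximum of 69 in those of replicate 2. Of the *Myh11*-high cells, 5.05% in replicate 1 and 11.2% in replicate 2 had 1 or 2 *Meg3* UMIs, and 67.3% and 27.0% had 3 or more. *Myh11*-high cells without *Meg3* were not much shallower than those with it, with medians of 21721 and 17642.5 UMIs against 24280 and 20928.5 in those with 3 or more *Meg3* UMIs. Free RNA from broken cells adds UMIs to all barcodes, and at its estimated share of 3.40% and 4.11% it would by itself give a *Meg3* UMI in 38.4% and 11.7% of the *Myh11*-high cells. That share counts every UMI of the endothelial genes in *Myh11*-low cells as free RNA. It may for that reason be too high, which was not tested. The share of *Myh11*-high cells with 1 or 2 *Meg3* UMIs was far below the 38.4% in replicate 1 (5.05%). In replicate 2 it was close to the 11.7% (11.2%). *Pecam1*, an endothelial gene used for the free RNA estimate, had a UMI in 0.775% and 0.642% of *Myh11*-low cells (median depth 19786 and 14492.5 UMIs). These shares are no background for *Meg3*, since *Pecam1* was far lower, at 11.3 and 10.1 CPM over all cells.

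**Figure D2:**
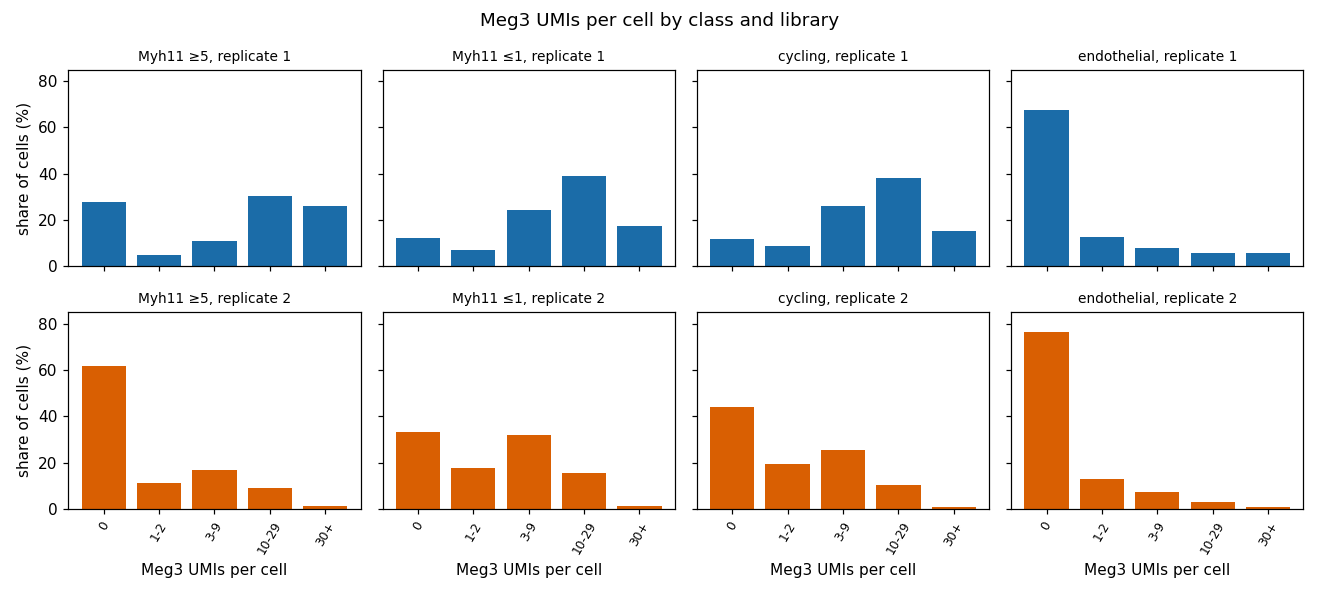
Share of cells in percent (y axis) by the number of *Meg3* UMIs in the cell (x axis) for each class (columns) and library (rows). In *Myh11*-high cells of replicate 1 the bar at 0 UMIs (27.6%) is followed by a low bar at 1 to 2 UMIs (5.05%) and high bars above, and in endothelial cells the bar at 0 holds 67.6% and 76.6% of the cells.

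*Myh11*-high cells with and without *Meg3* differed in other genes as well. These groups were formed by the measured *Meg3* count, so that the values are a description without a test. Cells with 3 or more *Meg3* UMIs (200 and 142 cells) had *Grb10* at 127 and 67.5 CPM against 38.5 and 40.7 in cells without *Meg3* (82 and 324 cells), *Dlk1* at 12.9 and 9.36 against 1.09 and 0.484, and *Mest* at 12.9 and 10.7 against 0.543 and 1.13. *Peg3* showed no such contrast, with 19.2 and 14.5 CPM against 22.8 and 12.4. *Serpinf1*, which encodes pigment epithelium-derived factor, was at 422 and 156 CPM with *Meg3* and at 21.7 and 16.6 without it. It was chosen as the gene that followed *Meg3* most closely over all cells (below), so that its difference here adds no further evidence. The contractile gene *Acta2* was at 13548 and 15753 CPM with *Meg3* and at 20492 and 16848 without, and *Myh11* itself at 541 and 644 against 920 and 642. *Tagln* was at 6157 and 8800 CPM with *Meg3* against 11195 and 9578. *Cnn1* was at 640 and 500 against 743 and 400, so that in replicate 2 it was higher with *Meg3*. Among *Myh11*-high cells, those without a *Meg3* UMI thus also had few UMIs of *Dlk1* and *Mest*, which were sparse in the other group as well. These cells were 324 of 525 in replicate 2 and 82 of 297 in replicate 1. That share depends on depth and on the *Meg3* level, so that it is no measure of a separate kind of cell.

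*Rian* could not be set beside *Meg3*, so that, after the tables had been seen, 3 other transcripts of the same strand and locus were taken in its place. *Mirg*, *B830012L14Rik* and *Gm26945* all followed *Meg3* from cell to cell. With all cells divided by their *Meg3* level per 10000 UMIs, *Mirg* rose from 0.815 CPM in the 696 cells without *Meg3* to 27.2 in the 1134 cells with at least 10 per 10000 in replicate 1, and from 0.962 (2749 cells) to 22.5 (344 cells) in replicate 2. *B830012L14Rik* went from 0.0815 and 0.107 CPM to 19.9 and 17.9, and *Gm26945* from 0 and 0.0427 to 2.91 and 2.69. At a *Meg3* level of 2 to under 5 per 10000, *Mirg* was at 8.79 and 7.09 CPM in the 2 cultures, *B830012L14Rik* at 5.25 and 3.34, and the sparse *Gm26945* at 0.635 and 0.247. *Dlk1*, on the other parental copy, also went up with *Meg3*, from 2.20 to 20.5 CPM in replicate 1 and from 1.33 to 56.0 in replicate 2.

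**Figure D3:**
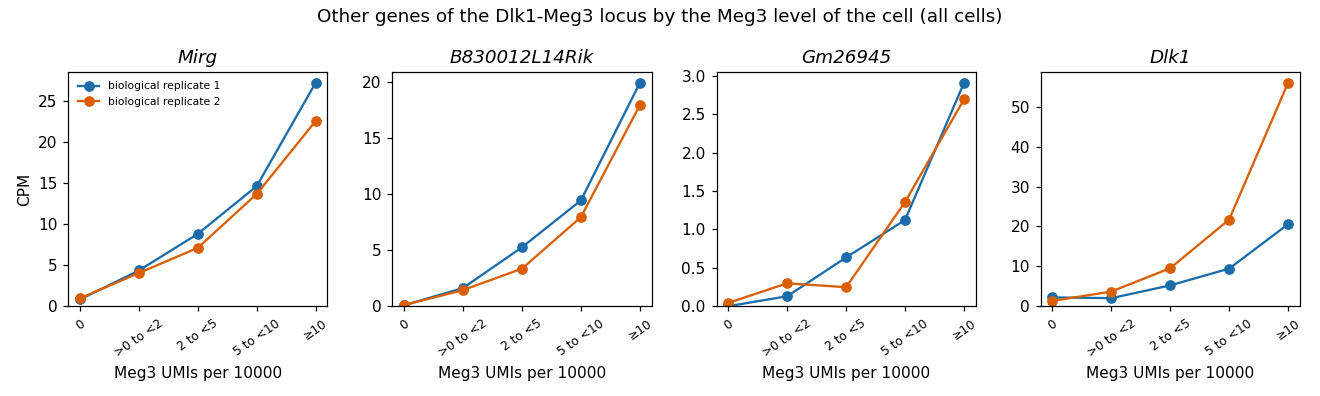
Level in CPM (y axis) of *Mirg*, *B830012L14Rik*, *Gm26945* and *Dlk1* in all cells grouped by their *Meg3* UMIs per 10000 UMIs (x axis), with a line per library. All 4 genes go up from the cells without *Meg3* to those with 10 or more per 10000, and the 2 lines lie close together for *Mirg* (27.2 and 22.5 CPM at the right end) but not for *Dlk1* (20.5 and 56.0).

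Over the 4866 and 6824 cells, Pearson's r between *Meg3* and *Mirg* was 0.313 and 0.262 (log of UMIs per 10000), between *Meg3* and *B830012L14Rik* 0.291 and 0.247, between *Meg3* and *Gm26945* 0.131 and 0.101, and between *Meg3* and *Dlk1* 0.188 and 0.281. These are descriptions over cells of 1 library each, which share its depth and preparation, and no p was computed. In *Myh11*-high cells alone, r for *Meg3* and *Mirg* was 0.440 and 0.407, and for *Meg3* and *B830012L14Rik* 0.357 and 0.332. *Grb10*, on another chromosome, was at 0.419 and 0.152 there, so that in replicate 1 it lay above *B830012L14Rik*. The coefficients depend on depth, since with each cell thinned to 3000 UMIs r for *Meg3* and *Mirg* was 0.104 and 0.107. For members on other chromosomes, r with *Meg3* over all cells was 0.010 and 0.075 (*Cdkn1c*), 0.058 and 0.106 (*Mest*) and 0.069 and 0.089 (*Peg3*). It was 0.085 and 0.141 for *Plagl1*, 0.085 and 0.167 for *H19*, and 0.211 and 0.178 for *Grb10*. All of these lay below the values of *Mirg* and *B830012L14Rik*, but not all below those of *Gm26945* and *Dlk1*. Thinned to 3000 UMIs, r was 0.081 and 0.088 for *Grb10*, 0.102 and 0.059 for *B830012L14Rik* and 0.028 and 0.040 for *Gm26945*.

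Among 8945 genes found in at least 10% of the cells of both libraries, the 5 whose level followed that of *Meg3* most closely, by the lower r of the 2 libraries, were *Serpinf1* (r = 0.401 and 0.455), *Fscn1* (0.356 and 0.440), *Svep1* (0.352 and 0.373), *Vegfd* (0.324 and 0.347) and *Sept11* (0.324 and 0.353). *Fscn1* encodes an actin-bundling protein, *Svep1* an extracellular matrix protein, *Vegfd* a growth factor of lymphatic vessels, and *Sept11* a septin. Of the 4 classes, *Myh11*-low cells had the highest level of all 5 genes in both libraries. *Serpinf1* was at 365 and 234 CPM there and at 303 and 57.1 in *Myh11*-high cells. The genes most like *Grb10* were *Marcks* (0.249 and 0.236), *Lima1* and *Sept11*, those most like *Plagl1* were *Gpc3* (0.185 and 0.193), *Sfrp1* and *Apoe*, and those most like *Mest* were *Igfbp4* (0.169 and 0.144), *Marcks* and *Islr*. For *Peg3* they were *Lpl* (0.110 and 0.106), *Mfap2* and *Gpm6b*, with values so low that they single out no gene.

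For the test, UMIs were summed over the cells of a class in each library, and the 8 sums were compared with edgeR's quasi-likelihood test and Benjamini-Hochberg adjustment over 14238 genes. Of the 9 members with a row, 8 were tested, and *Igf2* had too few UMIs. *Myh11*-high and *Myh11*-low cells are taken here to stand for contractile and modulated smooth muscle, but the origin of *Myh11*-low cells was not tested. The 5 adventitial fibroblast markers summed to 162 and 171 CPM in *Myh11*-low cells and to 74.0 and 36.0 in *Myh11*-high cells. Between these classes, 0 of 8 members passed an adjusted p of 0.05 in either direction, where 2.21% of all tested genes were higher and 0.857% lower. By DESeq2 the count was also 0 (5.71% of all genes higher and 3.37% lower), and at an unadjusted p under 0.05 it was 1, *Plagl1*. The median log2 fold change of the 8 members was -0.60, and that of all tested genes -0.03. Between cycling and *Myh11*-low cells again 0 of 8 members passed, where 4.83% of all tested genes were higher and 0.197% lower (0 by DESeq2, with 6.94% and 1.5% of all genes, and 0 at an unadjusted p under 0.05), and the medians were -0.41 and -0.03. Sums of the same number come from the same culture. With the culture as a replicate block (edgeR), *Grb10* passed as lower in *Myh11*-high cells (log2 fold change -0.60, adjusted p = 0.0453, against -0.54 and 0.483 without the block), where 11.3% of all tested genes were higher and 10.9% lower. In the same edgeR fit *Meg3* passed as lower in cycling cells (-0.79, adjusted p = 0.0301, against -0.70 and 0.823 without the block), where 13.5% of all tested genes were higher and 8.01% lower.

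Between ECs and the mean of the other 3 classes, 4 of 8 members were higher and 0 lower, where 11.9% of all tested genes were higher and 12.1% lower. The 4 were *Cdkn1c*, *Plagl1*, *Mest* and *Peg3*. By DESeq2 the same 4 were higher and 1, *Dlk1*, lower (14.1% and 12.3% of all genes), as it also was at an unadjusted p under 0.05. The median log2 fold change was 1.51 for the 8 members and -0.09 for all tested genes. With the block the counts were 5 higher and 2 lower, since *H19* was added to the first and *Meg3* and *Grb10* to the second, where 16.5% of all tested genes were higher and 20.3% lower. ECs also had the sum of the 5 adventitial fibroblast markers higher (324 and 441 CPM against 36.0 to 171 in the other classes), of which *Cd34*, found in ECs too, gave 265 and 405. *Pi16* was higher in ECs as well (23.4 and 11.99 CPM against 0.571 to 3.18), whereas *Pdgfra* (32.1 and 18.3 against 16.7 to 122), *Dpt* (2.55 and 5.71 against 5.996 to 32.2) and *Clec3b* (0.510 and 0.571 against 0.381 to 4.83) were not. Macrophage markers summed to 8.15 and 23.4 CPM in ECs and to 2.95 to 13.02 in the other classes, with *Ptprc*, *C1qa* and *Adgre1* at 0 in ECs. All 3 mesothelial markers were at 0 in ECs as well, the 3 adipocyte markers summed to 1.02 and 0 CPM, and the 4 markers of skeletal or heart muscle to 1.53 and 2.86. The 5 smooth muscle markers summed to 2761 and 1934 CPM in ECs and to 3330 to 26805 in the other classes. The part of these cell types in the values below was not tested.

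**Figure D4:**
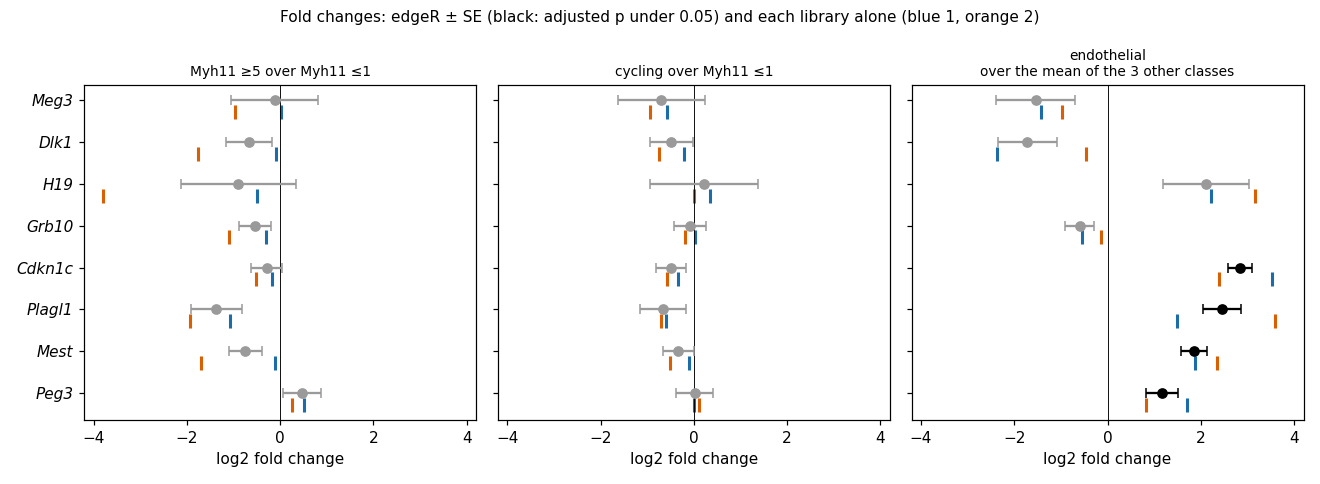
Log2 fold changes (x axis) of 8 members (y axis) in 3 comparisons, as the edgeR estimate with 1 standard error (circle and bar, black where the adjusted p is under 0.05) and as the difference in each library alone (blue tick for replicate 1, orange for replicate 2). Black circles are present only in the endothelial comparison, for *Cdkn1c*, *Plagl1*, *Mest* and *Peg3*, and both ticks of each of these lie right of 0.

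*Cdkn1c* encodes p57, an inhibitor of cyclin-dependent kinases that holds cells out of the cell cycle. Its level was 48.4 and 22.8 CPM in the ECs of replicates 1 and 2, and between 3.76 and 5.65 in all other classes. ECs thus stood apart in both cultures, with a log2 fold change of 2.84 ± 0.26 (estimate ± SE from edgeR, here and below, adjusted p = 0.000502). A UMI was found in 27.5% (exact 95% binomial interval from 19.1 to 37.2%) and 12.8% (7.745 to 19.4%) of the ECs, against 7.32% and 6.21% of the *Myh11*-low cells, although ECs were the shallower cells. The intervals cover counting error only. Thinned to 3000 UMIs per cell, the expected shares were 11.3% and 5.27% against 1.43% and 1.89%. Cycling cells did not stand out, with 3.78 and 3.76 CPM against 4.79 and 5.65 in *Myh11*-low cells (log2 fold change -0.49 ± 0.31, edgeR adjusted p = 0.566).

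*Plagl1*, which encodes a zinc finger transcription factor that can arrest cells or induce their death, was found at 25.5 and 70.2 CPM in ECs, at 13.6 and 10.8 in *Myh11*-low cells, at 9.02 and 6.63 in cycling cells and at 6.33 and 2.76 in *Myh11*-high cells. Both cultures gave this order, and replicate 2 the wider spread. Against the other classes the log2 fold change was 2.45 ± 0.41 (edgeR, adjusted p = 0.00624), or 1.48 in replicate 1 and 3.59 in replicate 2 alone. At least 1 UMI was found in 29.4% and 38.3% of the ECs and in 15.1% and 11.5% of the *Myh11*-low cells. The step from *Myh11*-low to *Myh11*-high cells was -1.37 ± 0.54 on the log2 scale and missed the threshold (edgeR, adjusted p = 0.250), and over the alternative settings its adjusted p ranged from 0.0789 to 0.358.

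*Mest* encodes an enzyme of the α/β-hydrolase fold of the endoplasmic reticulum. Of the 4 genes it was the one most alike in the 2 cultures, with 34.6 and 39.4 CPM in ECs against 3.998 to 13.04 in the other classes (log2 fold change 1.85 ± 0.28, edgeR adjusted p = 0.00428). A UMI was found in 23.5% and 21.3% of the ECs. Its 3' end overlaps that of *Copg2* on the opposite strand, which strand-specific counting keeps apart.

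*Peg3*, which encodes a large zinc finger protein, passed the threshold by a small margin. Its level was 51.5 and 20.6 CPM in ECs, 20.2 and 12.8 in *Myh11*-high cells, 14.2 and 10.9 in *Myh11*-low cells and 14.2 and 11.7 in cycling cells. The lower EC value, that of replicate 2, was thus close to the *Myh11*-high value of replicate 1. The log2 fold change was 1.17 ± 0.34 (edgeR, adjusted p = 0.0495). Of the 101 *Peg3* UMIs in the ECs of replicate 1, 29 came from a single barcode, and without it the level was 37.3 CPM. The share of ECs with a UMI, 23.5% and 13.5%, was not above that of *Myh11*-high cells, 31.3% and 19.05%, but thinned to 3000 UMIs it was 7.59% and 5.401% against 5.51% and 3.76%. All 4 genes were higher in ECs in both libraries and passed the threshold in 11 of 11 alternative fits.

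Most ECs held UMIs of no more than 1 of these genes. Of *H19*, *Cdkn1c*, *Peg3*, *Plagl1* and *Mest*, a set put together after their values were seen, 27 of 102 and 50 of 141 ECs held no UMI at all, at median depths of 10043 and 7902 UMIs, and 34 and 53 held UMIs of 1 gene. All 5 were found in 2 ECs of replicate 1 (median depth 38471.5), and no EC of the shallower replicate 2 held more than 4. The median depth was 24408 and 16037 UMIs in ECs with 3 of the genes, so that deeper cells held more of them.

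*H19* had its highest level in ECs, with 174 and 56.5 CPM, against 49.5 and 15.3 in cycling cells, 39.2 and 15.3 in *Myh11*-low cells and 27.6 and 1.05 in *Myh11*-high cells. The ECs of either culture lay above all other classes of both, but the 2 cultures differed so much that the log2 fold change of 2.11 ± 0.92 missed the threshold (edgeR, adjusted p = 0.147), while with the block it was 2.15 ± 0.39 (adjusted p = 0.00364). Few cells gave these counts. In replicate 1, 27 ECs held an *H19* UMI, and the 16 cells with 3 or more held 96.2% of the *H19* UMIs of the class. In replicate 2 these were 17 and 9 cells, with 89.9%. In these 16 and 9 cells *H19* was at 904 and 698 CPM. Of the 99 *H19* UMIs in the ECs of replicate 2, 30 came from a single barcode. Without it the level was 39.7 CPM, which is below that of cycling cells in replicate 1 (49.5). Outside ECs *H19* was patchy too, and 18.3% and 7.44% of the *Myh11*-low cells held a UMI.

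*Igf2* was counted with 9 UMIs in the cells of replicate 1 and 1 UMI in those of replicate 2. These counts are no measure of its level. In the annotation, *Gm49394* covers *Igf2* from 142650769 to 142669942 on the same strand, and Cell Ranger counts a read that falls on both genes for neither. *Gm49394* had 0 UMIs. The level of *Igf2* in these cells is therefore unknown.

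*Meg3* and *Dlk1* pointed the other way in ECs. For *Meg3* the log2 fold change in ECs was -1.54 ± 0.85 (edgeR, adjusted p = 0.237), and with the block -1.45 ± 0.20 (adjusted p = 0.000986). No *Meg3* UMI was found in 67.6% and 76.6% of the ECs. The remaining 32.4% (exact 95% binomial interval from 23.4 to 42.3%) and 23.4% (16.7 to 31.3%) compare with 29.5% and 7.38% that free RNA alone would give. Set against this estimate, the share of replicate 1 by itself cannot be told from background. The estimate counts every UMI of the endothelial genes in *Myh11*-low cells as free RNA, so that it may be too high. It concerns cells with at least 1 UMI and not the number of UMIs in a cell. Of the ECs, 12.7% and 12.8% held 1 or 2 *Meg3* UMIs, and 19.6% and 10.6% held 3 or more. Most *Meg3* UMIs of ECs came from few deep barcodes, with 87.7% of them in 12 barcodes of replicate 1 (median depth 42894 UMIs) and 58.8% in 5 of replicate 2 (32923 UMIs). ECs with 3 or more *Meg3* UMIs (20 and 15 cells, median depth 34735.5 and 22314) had *Acta2* at 3365 and 3112 CPM, against 601 and 375 in ECs without *Meg3* (69 and 108 cells). *Myh11* was at 121 and 51.4 CPM in the former against 6.08 and 0.892 in the latter. The endothelial genes were lower in the former, *Pecam1* with 284 and 300 CPM against 927 and 784, and *Cdh5* with 271 and 294 against 671 and 662. Doublets were not called, and the part of mixed barcodes in these values was not tested. With the ECs among the deepest 10% of cells left out, which was tried only after seeing the values, the log2 fold change of *Meg3* was -2.84 (edgeR, adjusted p = 0.0517).

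ECs without any *Meg3* UMI still carried most of the other members. *Cdkn1c* was at 78.0 and 31.2 CPM in them, *Plagl1* at 30.4 and 74.0, *Mest* at 29.4 and 47.3, *Peg3* at 63.8 and 24.97, *H19* at 267 and 76.7 and *Grb10* at 72.9 and 66.0. Except for *Grb10* and for *Mest* in replicate 1, each value was above that of all ECs together. *Dlk1* had 3 and 7 UMIs in ECs, all of them in cells that also held 3 or more *Meg3* UMIs, which is 1.53 and 3.998 CPM against 9.95 and 10.5 in *Myh11*-low cells. Its log2 fold change of -1.72 ± 0.63 missed the threshold (edgeR, adjusted p = 0.0952), and it passed in 3 of 11 alternative fits (DESeq2, *Myh11* per 10000 UMIs, and deep ECs left out, with -2.77). *Mirg* had 6 and 1 UMIs in ECs (log2 fold change -2.51 ± 1.18, edgeR adjusted p = 0.171, and 0.00723 with the block).

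*Grb10*, an adaptor protein that binds and dampens the insulin and IGF1 receptors, was found in 50.9 to 89.2% of the cells of the other classes and in 56.9% and 41.1% of the ECs. Its level was 126 and 105 CPM in *Myh11*-low cells, 128 and 91.8 in cycling cells, 102 and 48.6 in *Myh11*-high cells and 80.0 and 70.2 in ECs. Values of the classes overlapped, and the log2 fold change of ECs was -0.60 ± 0.30 (edgeR, adjusted p = 0.201, and 0.0362 with the block).

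Finer steps of *Myh11* showed where members changed among cells that were neither cycling nor ECs. From cells without a *Myh11* UMI (2282 and 3603 cells) to those with at least 20 (89 and 80 cells), *Plagl1* went from 13.9 and 11.2 CPM to 1.54 and 1.09, *Grb10* from 127 and 105 to 55.2 and 36.5, and *Mest* from 9.87 and 13.2 to 4.24 and 1.63. *Peg3* went the other way, from 14.1 and 10.5 CPM to 23.1 and 20.1. The paths between these ends differed between the cultures. In replicate 2 *Grb10*, *Plagl1* and *Mest* were lower at each higher step of *Myh11*, whereas in replicate 1 *Grb10* and *Mest* were highest in cells with 5 to 9 *Myh11* UMIs (141 and 13.6 CPM) and lowest in those with 20 or more. *Meg3* peaked at the same step in replicate 1, at 1012 CPM, and in replicate 2 it was highest in cells without *Myh11*, at 297 CPM. Cells with many *Myh11* UMIs were deeper, with medians of 27687 and 21659.5 UMIs at 20 and more against 19718.5 and 14480.0 at 0.

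**Figure D5:**
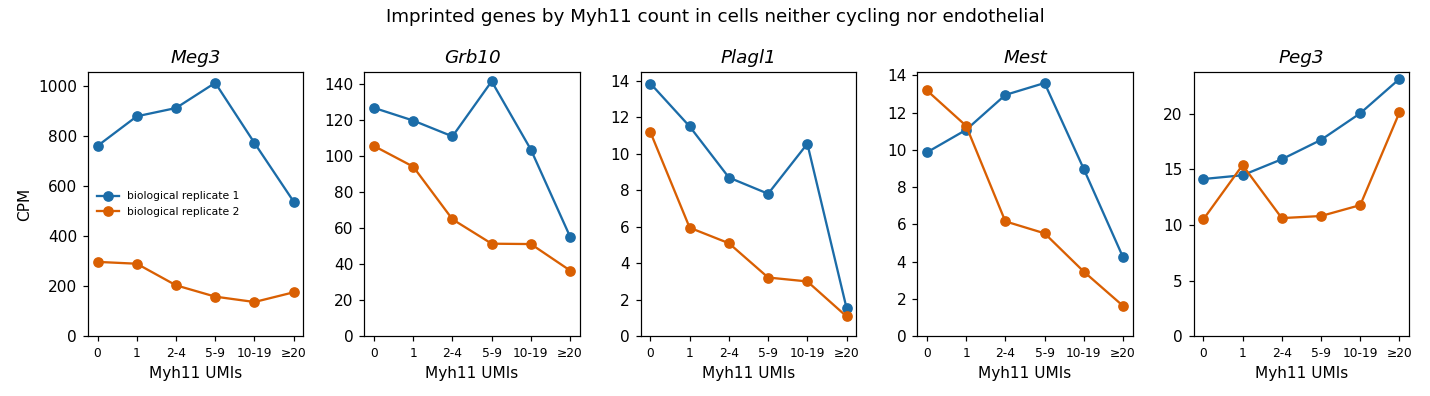
Level in CPM (y axis, from 0) of *Meg3*, *Grb10*, *Plagl1*, *Mest* and *Peg3* by the number of *Myh11* UMIs in the cell (x axis), in cells neither cycling nor endothelial, with a line per library. *Plagl1*, *Grb10* and *Mest* are lowest at 20 or more *Myh11* UMIs in both libraries, and *Peg3* is highest there.

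Of 47 other imprinted genes listed by name, 43 had a row and 34 were tested. In ECs 3 were higher and 7 lower, where 11.9% and 12.1% of all tested genes were, and with the replicate block 6 were higher and 13 lower, where 16.5% and 20.3% were. The median log2 fold change was -0.40. Among those that passed, the largest difference was that of *Asb4*, which encodes a subunit of ubiquitin ligases and lies in the *Peg10* cluster, with 27.0 and 28.6 CPM in ECs against 0.760 to 2.56 in the other classes (log2 fold change 3.89, adjusted p = 0.000334 from edgeR). *Kcnq1ot1*, the antisense RNA of the *Cdkn1c* domain, was higher at 157 and 184 CPM against 66.5 to 108 (log2 fold change 0.80, adjusted p = 0.0415), as was *Nap1l4* of the same domain (0.59, adjusted p = 0.00415, edgeR). *Sgce* and *Peg10*, neighbors of *Asb4*, were lower (-0.94, adjusted p = 0.00242, and -1.56, adjusted p = 0.0334, from edgeR), and so were *Gnas*, *Trappc9*, *Ube3a*, *Osbpl5* and *Mcts2* (-0.37 to -0.86), of which *Mcts2* is an intronless copy of another gene and may share its reads. *Peg10* and *Osbpl5* passed in 8, *Gnas* in 9, and *Trappc9* and *Ube3a* in 10 of 11 alternative fits, and the other 5 in all 11. In cycling cells 1 of 34 was higher (*Tssc4*, 0.75, adjusted p = 0.0407 from edgeR) and 0 were lower, and with the block 2 were higher and 6 lower, where 13.5% and 8.01% of all tested genes were. *Tssc4* lost the call when cycling cells were kept in the *Myh11* classes (adjusted p = 0.431 from edgeR). In *Myh11*-high against *Myh11*-low cells 0 of 34 passed in either direction, with 7 at an unadjusted p under 0.05, and with the block 5 were higher and 3 lower, where 11.3% and 10.9% of all tested genes were.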

How the data were processed

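Single-cell suspensions of 2 cultures were sequenced with 10x 3' chemistry (v3), and the deposited values are raw UMI counts for every gene in each barcode, which the authors made with Cell Ranger on mm10. The labels name version 3.0.2, and the file headers name it for replicate 1 but 3.1.0 for replicate 2. The tables hold unfiltered barcodes, and 4866 and 6824 cells passed the limits on genes, UMIs and mitochondrial share. Intervals on shares are exact binomial ones and cover counting error only. Thinned shares are those expected with 3000 UMIs drawn from each cell.

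UMI counts were summed per library and class, TMM-normalised, filtered with filterByExpr and fitted with glmQLFit in edgeR 4.0.16 (R 4.3.3), and p-values were adjusted over 14238 genes with a threshold of 0.05. The fits were tested on simulated counts, where most 2-fold changes were missed in each comparison, so that a gene without a call may still differ. The share of false calls there was above the threshold of 0.05 in each comparison, so that calls close to the threshold are less certain than their adjusted p. Fold changes within 1 library are differences of log2 CPM with 0.5 UMIs added and have no test. The sums of 1 library share a culture: deviations from the class means correlated between classes with r from 0.248 to 0.799 over 14238 genes, so that the library number pairs the sums. The p-values without the block rest on the spread between these 2 cultures within a class. Those with the block rest on the spread that remains once the difference between the cultures is taken out. Cells with 2 to 4 *Myh11* UMIs (222 and 274) were in no class of the test. Between the libraries 9 cell barcodes were shared (4.89 by chance), and these cells were kept. Doublets were not called, and leaving out the 5% of cells with the most UMIs was an alternative. The share of free RNA was estimated from the UMIs of endothelial genes in *Myh11*-low cells and the profile of barcodes with 1 to 100 UMIs. All such endothelial UMIs were counted as free RNA, so that the share may be too high.

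The named genes are all members, the genes of the 2 lists (other imprinted genes, receptors and binding partners of *Igf2*) that passed the threshold, and for each member expressed widely enough the most similar genes by Pearson's r over cells (5 for *Meg3*, 3 for others). Members and lists were chosen with earlier results of these data known. Gene positions are from GENCODE M21 (GRCm38), which matched 30934 of 31053 genes. Promoters were found for 8 of 10 members in RefSeq, not for *H19* and *Cdkn1c*. DESeq2 1.42.0, RLE factors, no filter, other class limits, a stricter mitochondrial limit, subtraction of free RNA and a replicate block were tried as alternatives. Deep ECs left out and the transcripts set beside *Meg3* in place of *Rian* were chosen after seeing the data. One further marker list is not reported here.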

Additional observations from a re-analysis of the deposited data

How the results depend on the processing

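The depth limits *Dlk1* and *Mirg* in ECs, with under 10 UMIs per library each. The counts of *Igf2* are no measure of its level because of the overlap with *Gm49394*, as given above. Of 589 tested values under alternative settings, which cover the 8 tested members and the 11 other imprinted genes that passed a threshold, 562 kept their direction and their side of the threshold, 11 lost the call, 11 gained it and 5 turned their sign. The replicate block gained calls for *Grb10* (*Myh11*-high), *Meg3* (cycling) and *H19*, *Meg3* and *Grb10* (ECs), as given with their values above, and changed no other call of a member. It raised the number of genes called from 436 to 3152 for *Myh11*-high against *Myh11*-low cells, from 716 to 3068 for cycling cells and from 3414 to 5236 for ECs. DESeq2 called 1293 genes for *Myh11* and 1201 for cycling cells (82.3% of them higher, against 96.1% with edgeR), no filter on low counts 728 and *Myh11* taken per 10000 UMIs 717 for *Myh11*, and with cycling cells kept in the *Myh11* classes 162 genes were called for cycling cells. The cause was not tested. Of these, the 5 values that turned their sign were all near 0 and not called: *Nap1l4* (0.0089) and *Ube3a* (0.0079) for *Myh11* with cycling cells kept, and *Peg3* for cycling cells with DESeq2 (-0.0114), RLE factors (-0.0110) and the deepest 5% of cells left out (-0.0086). The mean r of *Meg3* and *Mirg*, set in place of *Rian*, was 0.288 over all cells, 0.106 thinned to 3000 UMIs, 0.423 in *Myh11*-high cells, 0.242 in cycling cells and 0.445 in ECs. The EC value (0.565 and 0.326 in replicates 1 and 2) rests on under 10 *Mirg* UMIs per library and ranks no class. Thinned to 3000 UMIs it was -0.054 in replicate 1 and could not be computed in replicate 2. Leaving out a replicate leaves 1 sum per class and no test, so that no count of calls exists for it. Of 57 comparisons of named genes, 47 had the same direction in both libraries.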

Other observations

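Receptors and binding partners of *Igf2* were measured although *Igf2* was not. Of 6 genes tested, *Igf1r*, which encodes the signalling receptor of IGF1 and IGF2, was higher in *Myh11*-high cells (145 and 163 CPM) than in *Myh11*-low cells (92.8 and 84.2 CPM), with a log2 fold change of 0.88 ± 0.13 (edgeR, adjusted p = 0.0215). It was lower in ECs, at 68.8 and 60.5 CPM (-1.01 ± 0.12, edgeR, adjusted p = 0.0014). *Insr*, the insulin receptor, was higher in ECs, at 13.8 and 18.8 CPM against 6.37 to 10.9 in the other classes (0.73 ± 0.18, edgeR, adjusted p = 0.0289). In cycling cells 0 of the 6 passed, where 4.83% of all tested genes were higher and 0.197% lower. Of all tested genes, 2.21% were higher and 0.857% lower in *Myh11*-high cells, and 11.9% and 12.1% in ECs. With the replicate block *Insr* passed as lower in cycling cells (-0.45, edgeR, adjusted p = 0.0408), where 13.5% of all tested genes were higher and 8.01% lower. *Igf2r* then passed as higher in ECs (0.36, edgeR, adjusted p = 0.0266), where 16.5% were higher and 20.3% lower.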
